A study of Mus musculus with 4 samples.

Results

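NFAT and AP-1 proteins are the transcription factors that carry the T cell receptor signal to DNA, and 10 of their genes are described here: Nfatc1, Nfatc2, Nfatc3, Nfat5, Fos, Fosl2, Jun, Junb, Batf and Batf3. They were chosen by name, as 10 of the 21900 protein-coding genes in the NCBI RefSeq gene table of GRCm38.p6. The rule uses no measured value, but the genes were proposed with earlier results of these data known. Every KAP1 summit of either replicate at their ends, in their bodies or within 20 kb was listed, which gave 20 of the 8862 summits of replicate 1 and 56 of the 79515 summits of replicate 2. KAP1, encoded by Trim28, is a corepressor that is brought to DNA by other proteins, chiefly KRAB zinc finger proteins. Its positions were read by ChIP-seq, the sequencing of DNA precipitated with a protein, in regulatory T cells from the spleen of C57BL/6 mice, sorted and then kept in culture for 2 weeks. There were 2 samples precipitated with an antibody against KAP1 (Active Motif) and 2 input samples without antibody, which were not analysed here. All samples had the same strain, tissue and culture, with no treatment or genotype contrast, and the labels give neither the age of the mice nor whether the replicates came from separate animals. Whether differences between the replicates are technical or biological therefore cannot be told apart. The lists hold positions and no expression values, so the identity of the cells could not be checked against marker genes.

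In resting T cells the calcium-regulated NFAT proteins are phosphorylated and held in the cytoplasm. A calcium rise activates the phosphatase calcineurin, which removes the phosphates and lets NFAT enter the nucleus. There NFAT often binds composite sites together with AP-1, a dimer of a Fos and a Jun protein, or with other partners. In regulatory T cells NFAT also forms complexes with Foxp3. Batf and Batf3 are small AP-1 proteins that pair with Jun proteins and act with IRF factors in activated T cells. Nfat5 is the family member that responds to osmotic stress and does not depend on calcineurin.

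A summit is the position of highest enrichment within a called peak, and its score is the authors', a p-value or q-value of the peak caller written as −log10. Which of the 2 it is, is not stated in the lists. Scores describe and rank summits within their own list, by a percentile that runs from 0 for the weakest summit to 100 for the strongest. A summit was called shared when a replicate 1 summit had a replicate 2 summit within 200 bp, which held for 7720 summits of replicate 1 (87.1%). A gene end is the region within 1 kb of the lowest or highest coordinate of a gene, the body is the rest of the gene, and positions are 1-based on mm10. The read depth behind the lists is unknown.

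Of the 10 genes, 7 had at least 1 shared summit at an end, in the body or within 20 kb, as did 32.7% of all coding genes. Nfat5 and Batf had one at an end, as did 8.56% of coding genes. Nfatc1, Nfatc2, Nfatc3 and Batf had one or more in the body, as did 12.4%. Fos and Junb had shared summits only outside the gene, at 10676 and 14814 bp from Fos and between 1287 and 18355 bp from Junb. Fosl2, Jun and Batf3 had none. The 17 shared summits fell as 2 at ends, 6 in bodies and 9 outside the genes. With replicate 2 reduced to its 8862 highest scores, the 7 genes became 3, the 2 with an end summit became 1 and the 4 with a body summit became 2. With scores at or above the median of each list, these counts were 3, 0 and 2.

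The promoter sequences that carried a summit of at least 1 replicate give its position against the start of 3 of these genes. RefSeq promoter windows of GRCm38.p6, each with 250 bases before and 50 after an annotated start, were held in the table for 9 of the 10 genes, in 11 windows. A summit of either replicate fell inside 3 of these windows, those of Nfat5, Fos and Batf, while the remaining 8 windows held no summit. The 3 are printed here because they place a summit against a start. Only 1 of them, that of Nfat5, held summits of both replicates. All 3 are on the + strand and read 5′ to 3′, and capitals mark the letters GGAAA, the core bound by NFAT proteins, on either strand (TTTCC when it lies on the other strand).
Nfat5 promoter, chr8:107293220-107293519: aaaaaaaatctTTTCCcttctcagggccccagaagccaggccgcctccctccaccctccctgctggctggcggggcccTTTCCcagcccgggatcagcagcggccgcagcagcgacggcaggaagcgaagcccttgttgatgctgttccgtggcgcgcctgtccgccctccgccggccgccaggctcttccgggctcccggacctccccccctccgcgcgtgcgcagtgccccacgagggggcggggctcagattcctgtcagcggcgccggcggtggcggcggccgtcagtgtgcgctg
Fos promoter, chr12:85473640-85473939: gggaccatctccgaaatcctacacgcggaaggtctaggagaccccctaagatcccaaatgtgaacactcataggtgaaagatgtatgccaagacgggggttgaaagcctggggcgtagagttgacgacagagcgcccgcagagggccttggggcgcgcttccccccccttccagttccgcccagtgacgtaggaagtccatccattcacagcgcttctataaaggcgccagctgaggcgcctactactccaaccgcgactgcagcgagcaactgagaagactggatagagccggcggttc
Batf promoter, chr12:85686470-85686769: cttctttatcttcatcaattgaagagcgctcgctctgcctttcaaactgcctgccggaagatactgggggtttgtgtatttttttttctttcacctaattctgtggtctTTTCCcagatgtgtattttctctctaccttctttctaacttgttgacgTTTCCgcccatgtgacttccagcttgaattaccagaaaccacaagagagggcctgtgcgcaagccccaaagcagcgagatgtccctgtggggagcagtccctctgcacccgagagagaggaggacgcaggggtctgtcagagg
In the Nfat5 window the replicate 1 summit was base 105 and the replicate 2 summit base 100, both upstream of the annotated start. In the Fos window the replicate 1 summit was base 276, which is 25 bp downstream of the start. The Fos summit of replicate 2 lay outside the window, 501 bp upstream of the start. In the Batf window the replicate 2 summit was base 53, and the replicate 1 summit lay 58 bp before the first base.

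The letters of 3 motifs were searched on both strands. GGAAA was present in the Nfat5 window from bases 12 and 79 and in the Batf window from bases 110 and 158, in each case on the − strand. The Fos window held none. Over all members GGAAA was present in 7 of 11 windows, beside 61.3% of the 32851 windows of the whole table. The AP-1 site TGANTCA was present in none of the 11 windows, beside 7.81% of all windows, and the CRE site TGACGTCA in none, beside 1.79%. Only these exact letters were searched, so variants of the sites were not counted. In the windows shown no motif other than GGAAA was present, so overlap between the motifs could not arise. A match is a description of the letters only.

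**Figure D1:**
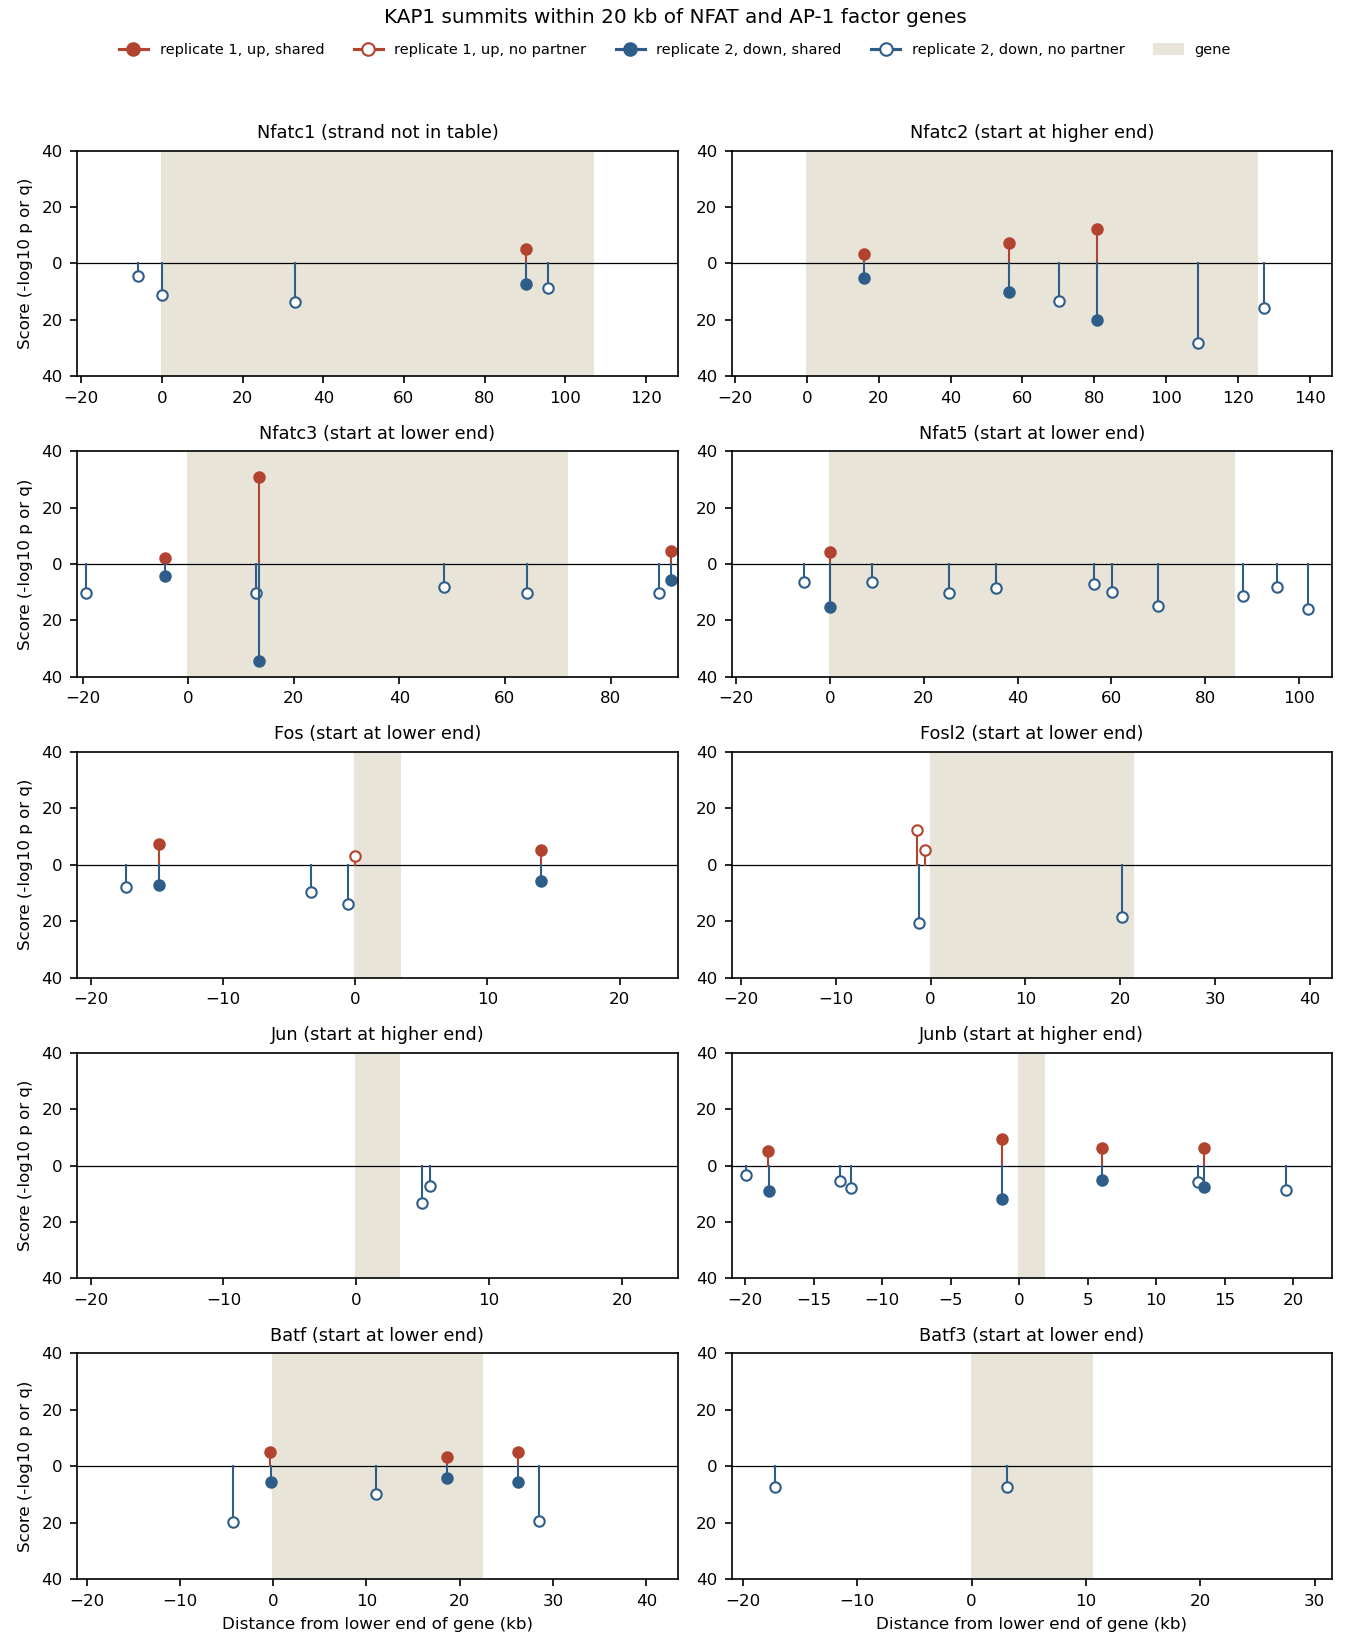
Each panel shows 1 gene with the distance from its lower end in kb on the horizontal axis and the score of each summit (−log10 p or q) on the vertical axis, replicate 1 upward and replicate 2 downward, with the gene shaded. Filled points are shared summits and open points have no partner within 200 bp, and the highest points of both replicates are the shared pair inside Nfatc3.

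Among the NFAT genes, Nfatc3 carried the strongest shared site of the 10 genes. Nfatc3 encodes a calcineurin-dependent NFAT protein that is present in thymocytes and T cells, and it spans positions 106058818 to 106130537 of chromosome 8. The shared summit at position 106072305 lay in the gene body, 12715 bp downstream of the nearest annotated start. Its score was 31 in replicate 1 (percentile 95.4) and 34.5 in replicate 2 (percentile 98.5), and the summits were 3 bp apart. It was the only one of the 17 pairs above percentile 90 in both lists, as were 11.4% of all shared pairs. A replicate 2 summit lay 640 bp below it, with a score of 10.3 and no partner. Outside the gene there were 2 weak shared summits. The one 4346 bp below the lower end had scores of 2.31 and 4.39, and the one 19806 bp above the higher end had scores of 4.61 and 5.78. Each was nearer to another gene, the former at 632 bp from the tRNA-modifying enzyme gene Dus2 and the latter at 11 bp from the lysosomal phospholipase gene Pla2g15.

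Nfatc2 held 3 shared summits, all within the gene body and none at either end. Nfatc2 encodes NFAT1, an NFAT protein already present in resting T cells, and spans positions 168476410 to 168601657 of chromosome 2 with its start at the higher end. At position 168557138 the scores were 12.2 in replicate 1 and 20 in replicate 2 (percentiles 75.2 and 95.2). At position 168532556 both replicates had the summit on the same base, with scores of 7.25 and 10.2. At position 168492232 the scores were 3.21 and 5.06, near the bottom of both lists (percentiles 6.97 and 6.73). In both replicates the scores of these sites fell in the same order along the gene, highest nearest to the start. The strongest replicate 2 summit in Nfatc2 was however not among them. It lay at position 168585433, which is 4932 bp downstream of the second annotated start, with a score of 28.1 (percentile 97.7), and replicate 1 had no summit within 28295 bp. Among coding genes over 50 kb, 3.82% held 3 or more shared body summits.

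Nfatc1 had 1 shared summit, in its body. The gene encodes NFAT2, whose short isoform is induced on T cell activation, and spans positions 80606205 to 80713071 of chromosome 18. The site at position 80696463 lay 16608 bp inside the higher end and had scores of 5.1 and 7.4 (percentiles 28.6 and 33.7). Replicate 2 alone had a summit 44 bp inside the lower end (score 11.2, percentile 74.2) and others in the body at 33048 bp from the lower end (13.8) and 11102 bp from the higher end (8.77). The shared site was thus the weakest of the 3 body summits that replicate 2 had in Nfatc1. No promoter window was matched for this gene.

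Nfat5 had 1 shared summit, at its promoter. The gene encodes the osmotic stress factor, also called TonEBP, and spans positions 107293435 to 107379517 of chromosome 8. The site at position 107293324 lay 111 bp outside the lower end, inside the promoter window printed above. Its score was 4.19 in replicate 1 (percentile 17.8) and 15.2 in replicate 2 (percentile 89.4). These percentiles refer to lists of 8862 and 79515 summits and cannot be set against each other. With replicate 2 reduced to its 8862 highest scores, the site was still shared. Replicate 2 had 11 summits at or around Nfat5, the highest number of the 10 genes, and 10 of them had no partner. Of these 10, 6 were in the body, with scores from 6.5 to 14.9. Among coding genes over 50 kb, 26.1% had 10 or more replicate 2 summits in the same span.

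Of the AP-1 genes, neither Fos gene had a shared summit at its end, although both replicates placed summits near each start. Fos, an immediate early gene that is switched on within minutes of stimulation, spans positions 85473890 to 85477274 of chromosome 12. Replicate 1 had a weak summit 25 bp inside the gene (score 3.21, percentile 6.97). Replicate 2 had a stronger one 501 bp upstream (score 14, percentile 86.6), and the 526 bp between them exceeded the pairing distance. Both shared Fos summits were distal. The one 14814 bp upstream had scores of 7.25 and 7.27, and the one 10676 bp beyond the higher end had scores of 5.1 and 5.7. Fos was the nearest coding gene to both.

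Fosl2, which encodes the Fos-related protein Fra-2, spans positions 32136472 to 32157840 of chromosome 5. Replicate 1 had summits 1476 and 599 bp upstream of its start, with scores of 12.2 and 5.1. Replicate 2 had 1 summit there, 1239 bp upstream, with a score of 20.8 (percentile 95.7). The nearer of the replicate 1 summits was 237 bp from it and so just outside the pairing distance. With a pairing distance of 500 bp, Fosl2 was counted as an eighth gene with a shared summit. A second replicate 2 summit, 1200 bp inside the higher end, had a score of 18.5 (percentile 94.2), with no replicate 1 summit within 20767 bp.

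Jun and Junb differed widely in what lay around them. Jun encodes the main partner of Fos in AP-1 and spans positions 95049036 to 95052222 of chromosome 4. Replicate 1 had no summit within 20 kb of Jun. Replicate 2 had 2, at 1787 and 2363 bp upstream of the start, with scores of 13.3 and 7.27, and the nearest replicate 1 summit was 140137 bp from the farther one. Junb encodes a Jun protein that works with Batf in helper and regulatory T cells, and spans positions 84976909 to 84978748 of chromosome 8. It had no summit at an end in either replicate, but 4 shared and 9 replicate 2 summits within 20 kb, the highest shared number of the 10 genes.

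The shared summit closest to Junb lay 1287 bp below its lower end, the end where transcription stops, with scores of 9.5 and 11.8 (percentiles 65.3 and 77.3). It was the strongest of the 4, and it was nearer to Prdx2, a peroxiredoxin gene, at 811 bp. The site 4202 bp upstream of Junb had scores of 6.16 and 5.2 and was the only one of the 4 with Junb as its nearest coding gene. It was also the only one of the 17 pairs with a lower score in replicate 2 than in replicate 1. The other two lay inside other genes. One was in Rnaseh2a, which encodes the catalytic subunit of ribonuclease H2, with scores of 5.1 and 9.01, and one was in Hook2, a microtubule adaptor gene, with scores of 6.16 and 7.51. Among coding genes under 10 kb, 1.1% had 4 or more shared summits in the same span. Apart from Junb, 51 coding genes had the same counts of shared summits, 0 at ends, 0 in the body and 4 outside. The 3 nearest to it in length were ND5, which lies on mitochondrial DNA, Gstp2 and Tmem95. This likeness rests on 3 counts per gene over 2 samples.

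Batf had a shared summit in each kind of place. It encodes a factor needed for effector regulatory T cells and spans positions 85686720 to 85709087 of chromosome 12. The site at its promoter lay 308 bp upstream of the start in replicate 1 and 198 bp upstream in replicate 2, with scores of 5.1 and 5.75. The 110 bp between these summits was the largest distance of the 17 pairs. The body site was 3737 bp inside the higher end, with scores of 3.21 and 4.23, and the outer site 3889 bp beyond that end, with scores of 5.1 and 5.68. All 3 sites were weak in both lists, at or below percentile 28.6. The strongest replicate 2 summits by Batf had no partner. They lay 4266 bp upstream (score 19.8, percentile 95.1) and 6084 bp beyond the higher end (19.4, percentile 94.9). Batf3, which is required for a lineage of dendritic cells and is also expressed in T cells, had no replicate 1 summit. Replicate 2 had one in its body (7.26) and one 17173 bp upstream (7.38), at percentiles 29.3 and 30.3.

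Fos and Batf lie on the same chromosome, 209 kb apart. Between the end of Fos and the start of Batf there were 6 replicate 1 summits, all of them shared, and 12 of replicate 2. The 6 include the shared Fos site beyond its higher end and the Batf promoter site, both given above. Of all replicate 1 summits, 87.1% were shared. Jdp2, which encodes a repressor of the AP-1 family, lies between Fos and Batf and held 1 of the 6 in its body, at position 85624745, with scores of 4.61 and 6.62.

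**Figure D2:**
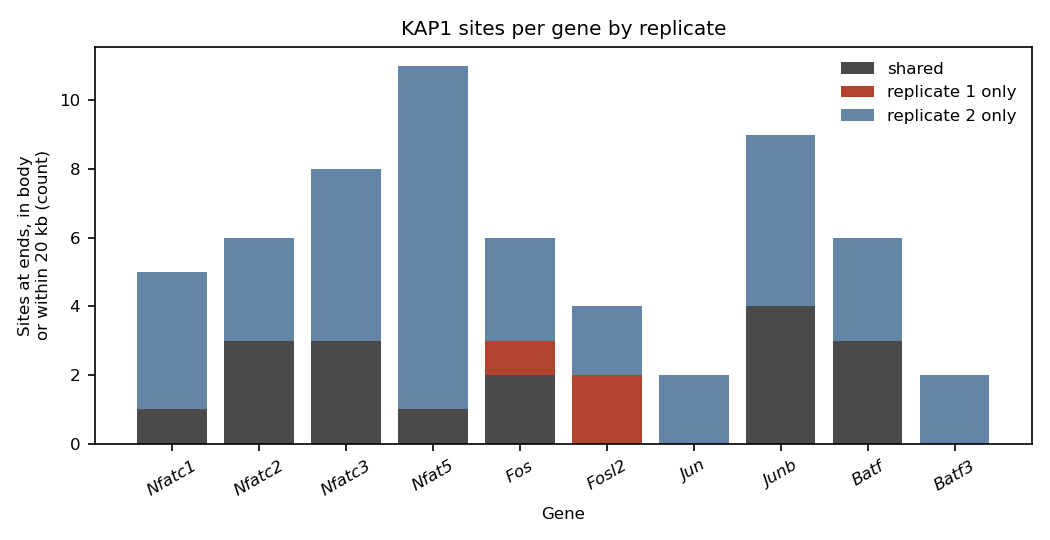
Stacked bars give the number of sites at the ends, in the body or within 20 kb of each gene, divided into shared sites, replicate 1 only and replicate 2 only. Junb has the most shared sites (4), Nfat5 the most of replicate 2 only (10), and Fos and Fosl2 are the genes with unpaired replicate 1 summits.

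Pairing across the replicates was next set beside that of the whole lists. Of the 20 replicate 1 summits by these genes, 17 had a replicate 2 partner (85%, Wilson 95% interval 64 to 94.8%), beside 87.1% of the whole list. Of the 56 replicate 2 summits by these genes, 17 had a partner (30.4%, 19.9 to 43.3%), beside 9.71% of the whole list. The whole lists also hold summits far from genes, and shares over summits near coding genes alone were not counted. These intervals cover counting error only, and neighbouring summits are not independent. The median distance within the 17 pairs was 13 bp, with a range from 0 to 110 bp, and 14 pairs lay within 50 bp. Over all 7720 pairs the median was 6 bp, and 92.7% lay within 50 bp.

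Most shared sites by these genes had low scores. In replicate 1 their scores ran from 2.31 to 31, with a median of 5.1 at percentile 28.6, while the median percentile of all shared summits was 58.3. In replicate 2 they ran from 4.23 to 34.5, with a median of 7.27 at percentile 29.4, beside a median percentile of 81.2. Of the 17 pairs, 3 were above percentile 50 in both lists, beside 52.7% of all pairs. These were the Nfatc3 body site, the Nfatc2 site at position 168557138 and the Junb site by Prdx2. The replicate 2 score was the higher one in 16 of 17 pairs, as it was in 87.7% of all pairs, and scores of different lists are not on one scale.

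**Figure D3:**
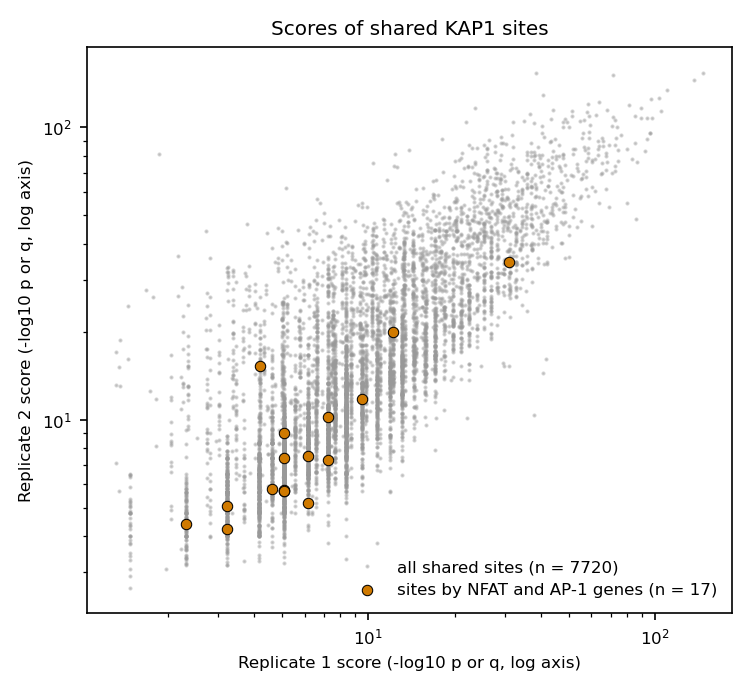
Each point is a shared site, with its replicate 1 score on the horizontal and its replicate 2 score on the vertical log axis, for all 7720 shared sites in grey and the 17 by NFAT and AP-1 genes in orange. Most orange points lie at the low end of the grey cloud, the highest being the Nfatc3 site at 31 and 34.5, and the vertical bands are tied replicate 1 scores.

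Replicate 1 scores took few values, which limits what their ranks can resolve. The whole list held 650 distinct scores among 8862 summits, and 1188 summits shared the score of 5.1. Of the 20 replicate 1 summits by these genes, 6 had this score, by Nfatc1, Fos, Fosl2, Junb and Batf, and 3 had 3.21, by Nfatc2, Fos and Batf. Summits tied at one score cannot be ranked against each other in replicate 1. Replicate 2 held 4942 distinct scores.

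The strongest replicate 2 summits by these genes were for the most part not shared, as was the case in the whole list. Above percentile 90 of replicate 2 there were 9 summits, of which 2 were shared (22.2%, Wilson 95% interval 6.32 to 54.7%), beside 38.2% of the whole list. The 2 shared ones were the Nfatc3 and Nfatc2 body sites. The other 7 lay in Nfatc2 (28.1), upstream of Nfatc2 (15.9), beyond Nfat5 (16), upstream of Fosl2 (20.8, with the replicate 1 summit at 237 bp), in Fosl2 (18.5) and on both sides of Batf (19.8 and 19.4). The 39 replicate 2 summits without a partner had a median percentile of 63.4, beside 46.4 for all such summits. Those with a partner had a median percentile of 29.4, so the order of the 2 medians was the opposite of that in the whole list.

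**Figure D4:**
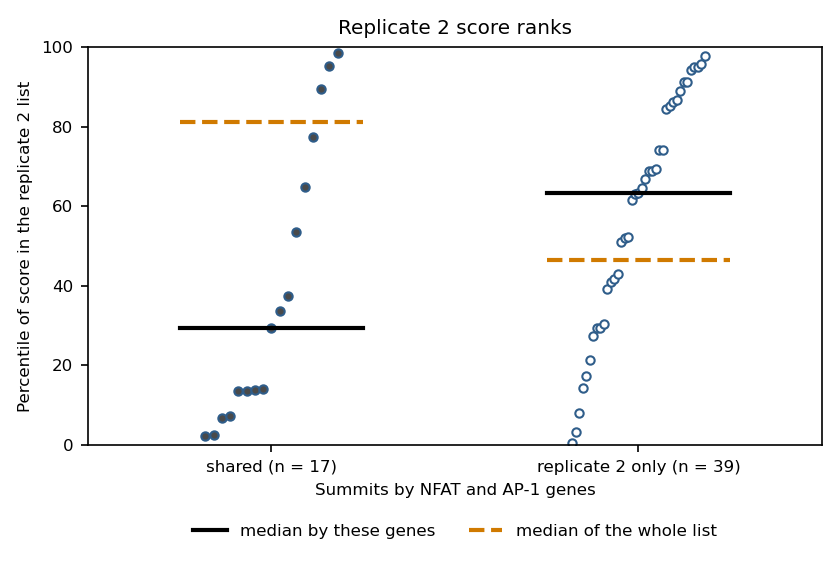
Points are the replicate 2 summits by NFAT and AP-1 genes, with the percentile of their score in the replicate 2 list on the vertical axis, split into 17 shared and 39 of replicate 2 only. Solid lines are the medians of these points (29.4 and 63.4) and dashed lines the medians of all shared and all replicate 2 only summits (81.2 and 46.4).

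Counts of genes were read beside the shares of all coding genes with a shared summit in the same place. At an end, 2 of the 10 genes had one, where 8.56% of 21900 coding genes did. In the body it was 4 of the 9 genes long enough to have one, Junb being too short, where 12.4% of 19301 coding genes did. In the span from 1 to 20 kb outside the gene it was 4 of 10, where 20.9% did. In any of these places it was 7 of 10, where 32.7% did. No test was made on these counts, which rest on few genes.

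The counts were also read within classes of gene length. All 4 NFAT genes were over 50 kb, and each had a shared summit in at least 1 of these places, where 38.4% of coding genes of that length did. In the body it was 3 of the 4, where 25% did. Of the 3 genes from 10 to 50 kb (Fosl2, Batf and Batf3), 1 had a shared summit in any place, where 36.8% did. Of the 3 genes under 10 kb (Fos, Jun and Junb), 2 had one, where 24.6% did. Of the 9 shared summits outside the genes, 5 lay inside or at an end of another coding gene, so that 4 had the listed gene as the nearest one.

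Each replicate's own list was counted in the same way. At ends, replicate 1 alone had summits at 4 genes (Fos, Fosl2, Nfat5 and Batf), where 9.42% of coding genes had one, and replicate 2 alone at 4 (Fos, Nfatc1, Nfat5 and Batf), where 22.2% had one. In bodies, replicate 1 had summits in 4 genes, where 13.3% of coding genes had one, and replicate 2 in 7, where 54.4% had one. Replicate 2 summits were in the body of all 4 NFAT genes, as in 90.7% of coding genes over 50 kb. All 10 genes had a replicate 2 summit within 20 kb, as did 80.9% of coding genes. No replicate 1 summit was present in the span of Jun and Batf3, as for 65.7% of coding genes.

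Other genes of the pathway were read in the same way, from a list of 33 named for their function. Of these, 6 had a shared summit at an end (18.2%, beside 8.56% of all coding genes) and 11 had one in the body (33.3%, beside 12.4%). In any place out to 20 kb it was 21 (63.6%, beside 32.7%). The list was chosen with earlier results of these data known, and no test was made on it. Its shares were not split by gene length, and 25% of coding genes over 50 kb had a shared body summit. Of the 7 other NFAT and AP-1 family genes, none had a shared summit at an end and 1 had one in the body (14.3%, close to the 12.4% of all coding genes), the Jdp2 site given above. Nfatc4, Fosb, Fosl1, Batf2 and Atf3 had none within 20 kb. Jund had 2 outside the gene. Of the 4 genes of the JNK branch, the kinases that phosphorylate Jun, 1 had a shared summit in the body. This was Map2k4, a kinase that activates JNK, with scores of 2.8 and 5.79.

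Genes of calcium entry, calcineurin and the NFAT kinases made up 22 of the 33 listed genes. Of these 22, 6 had a shared summit at an end (27.3%, beside 8.56% of all coding genes) and 9 had one in the body (40.9%, beside 12.4%). Several of the 22 were over 50 kb, a length at which 25% of coding genes had a shared body summit. Stim1, the calcium sensor of the endoplasmic reticulum, had body sites with scores of 25.3 and 30.9 and of 7.43 and 14.4 in replicates 1 and 2. Its relative Stim2 had one with scores of 3.74 and 27.9. The channel gene Orai2 had a site 598 bp inside its higher end (15.5 and 29.8) and one in the body (10.7 and 8.56), and Orai3 one 967 bp inside its higher end (7.25 and 7.86).

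Calm2, which encodes the calcium sensor calmodulin, had a site 303 bp inside its higher end (13.3 and 37.7). Of the calcineurin subunit genes, Ppp3cc had 2 body sites (22.5 and 15.5, and 4.61 and 38.6), while Ppp3r1 had one site at 173 bp below its lower end (1.48 and 4.44) and another in the body (6.16 and 8.39). The other listed calcineurin subunit genes, Ppp3ca and Ppp3cb, had no shared summit within 20 kb, although replicate 2 had 17 and 8 summits there. Among calcineurin inhibitors, Rcan3 had a site 211 bp outside its higher end (11.9 and 15.2), and Cabin1 one 975 bp outside its higher end (6.16 and 7.33) and one in the body (12.2 and 11.3).

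Of the kinases that return NFAT to the cytoplasm, Dyrk1a had a body site with scores of 17.9 and 37.7 and Dyrk2 one with scores of 6.16 and 7.37. Homer3, a scaffold that competes with calcineurin for NFAT, had a body site with scores of 17 and 21.3. Several of these pathway sites ranked above all but the Nfatc3 site of the 10 factor genes in replicate 1, namely those of Stim1, Ppp3cc, Dyrk1a, Homer3, Orai2 and Calm2.

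**Figure D5:**
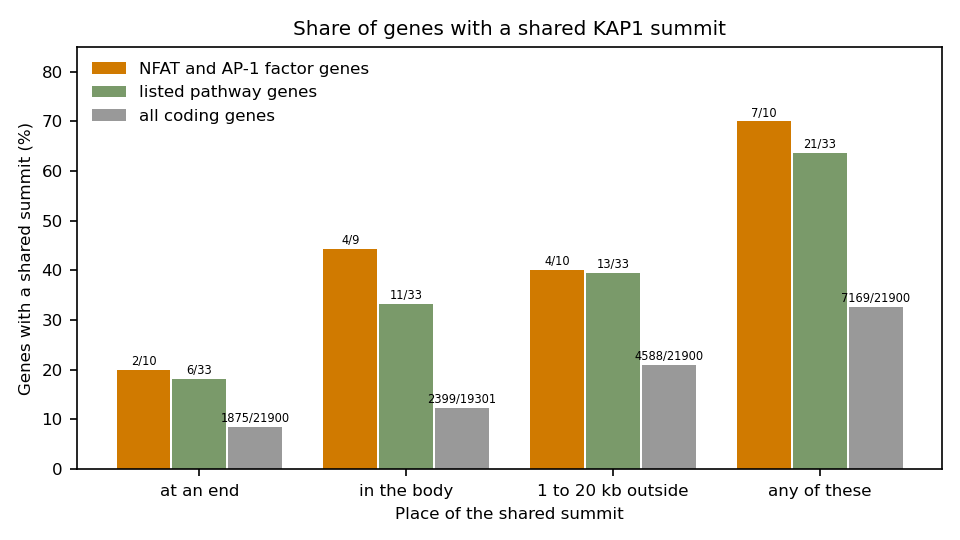
Bars give the percentage of genes with a shared summit at an end, in the body, from 1 to 20 kb outside or in any of these places, for the 10 NFAT and AP-1 factor genes, the 33 listed pathway genes and all coding genes, with the counts above each bar. For any place the bars stand at 7 of 10, 21 of 33 and 32.7%.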

How the data were processed

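KAP1 ChIP-seq was done on 2 samples, each with 1 deposited list of summits. MACS2 2.2.1, Bowtie2 2.2.9 and Picard 2.1.1 and the build mm10 are named in the submitters' processing notes. Settings, control and threshold were not given in the sources used here. Per the labels' protocols, fragments of 150 to 400 bp were selected. The deposited score is a p-value or q-value on the −log10 scale. Replicates were called separately.

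Summits were paired at 200 bp, using the replicate 1 position, and assigned to RefSeq genes of GRCm38.p6, whose coordinates are those of mm10. The start came from the promoter table. Computations used Python 3.11.15 with numpy, pandas and scipy, and were tested on simulated data. Shares have Wilson 95% intervals. No test was made, since 2 samples of 1 group allow none between conditions.

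The 10 genes and the pathway list were chosen with earlier results of these data known. Named by rule were the 10 genes, pathway genes with a shared end or body summit (others as counts or examples chosen after their values were seen), nearest genes of shared summits, and genes with the same counts as the one with most shared summits. Alternatives were pairing distances of 50 and 500 bp, end windows of 500 and 2500 bp, spans of 10 and 50 kb, scores at or above the list median, replicate 2 reduced to 8862 summits, summits within 1 kb merged, each replicate alone, and annotated starts only.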

Additional observations from a re-analysis of the deposited data

How the results depend on the processing

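Of 45 recomputed counts, 32 stayed within 1.5 times the reported value, but some of these could not move. The span does not enter the counts at ends or in bodies. The end window does not enter the counts of genes or summits over the whole span. Genes with a shared summit at an end went from 2 to 1 with a pairing distance of 50 bp (Nfat5), to 0 with scores at or above the list medians, and to 1 with replicate 2 reduced (Nfat5). Genes with one in the body went from 4 to 2 with scores at or above the medians and to 2 with replicate 2 reduced, in both cases Nfatc2 and Nfatc3. Genes with one in any place went from 7 to 3 with scores at or above the medians (Junb, Nfatc2 and Nfatc3) and to 3 with replicate 2 reduced (Nfat5, Nfatc2 and Nfatc3), and the shared summits from 17 to 4 and 3. These 2 settings keep fewer summits by construction. Leaving out either replicate, with the summits of the remaining list counted without pairing, gave 4 genes at an end in both cases, 4 to 7 in the body, 8 to 10 in any place and 20 to 56 summits. The upper counts come from leaving out replicate 1. The start-only setting was run for gene ends only, since bodies and spans do not use it. No paired analysis was possible because the input samples had no summit list, and the result comes from no test. The depth of the lists is unknown, and a missing summit in replicate 1, whose list is the shorter one, does not show that KAP1 was absent.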
